A study of Mus musculus with 2 samples.

Results

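The Rhox genes described here are Rhox1, Rhox5, Rhox6 and Rhox9, 4 of the 32285 genes counted in 2 single-cell libraries of mouse embryonic stem cells. The files list 34 genes whose symbol begins with Rhox, and the 4 were taken by symbol because they were the ones known from earlier values of these libraries to be high at the first time point and lower at the second. Their levels and their fall between the time points are therefore a description, and no p-value was computed for them. All 4 lie on the X chromosome, within the 916 kb that run from Rhox1 at one end (X:37213804 to 37222258, minus strand, ENSMUSG00000071773) to Rhox13 at the other, in GENCODE M21 coordinates of GRCm38. Rhox5 is annotated at X:37804842 to 37808876 on the plus strand (ENSMUSG00000095180), Rhox6 at X:37826910 to 37829857 on the plus strand (ENSMUSG00000006200) and Rhox9 at X:37899097 to 37901770 on the minus strand (ENSMUSG00000068048).

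Rhox genes encode homeobox transcription factors that are used mostly in reproductive tissues: testis, ovary, placenta and germ cells. In the mouse they sit side by side on the X chromosome, and promoter DNA methylation keeps them silent in most somatic cells of the embryo. Rhox5, also called Pem, is the founding member and is made in embryonic stem cells, extraembryonic tissues and Sertoli cells. Rhox6 and Rhox9, also called Psx1 and Psx2, are a related pair known from the placenta and from germ cells. Female stem cells with a pair of active X chromosomes are known for lower DNA methylation than male ones, and lose an X often in culture.

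The libraries came from C3H/HeSn-Paf/J stem cell lines, 3 each from XX, XO and XY embryos, which were mixed and captured together. Time 1 is an early passage and time 2 is 10 further passages on. The cells grew in serum with leukaemia inhibitory factor on gelatin and irradiated mouse embryonic fibroblasts, called feeders, and the labels name no added allele or agent. The strain symbol itself includes Paf, for Patchy fur, an X-linked mutation, and which lines carry it is not given in the labels. Lipid tags that could have marked lines were not analysed here. Each time point had 1 library and cells were not linked to lines, so the 9 lines of a library are 1 sample, and all intervals below are 95% intervals that cover counting error only.

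The filters left 23162 cells of time 1 and 25424 of time 2, whose median depths were 43558.5 and 50260.5 unique molecular identifiers (UMIs, counted RNA molecules). Of these, 157 cell barcodes occurred in both libraries. Cells were grouped into 10 clusters from autosomal genes, so no Rhox gene took part, and each cluster is called by its leading autosomal gene. The clusters led by H19, Tdh and Jam2 are called pluripotent stem cell-like, since all 12 pluripotency markers were detected in them and no marker of another class was among their 10 leading genes. Rhox9, Rhox6 and Rhox1 were themselves among the 10 leading genes of the H19-led cluster, and its Rhox levels are a description. This class held 5696 cells at time 1 and 15707 at time 2, and different clusters filled it: 3647 of the time 1 cells were H19-led and 13134 of the time 2 cells were Tdh-led. The Bnip3-led and Nanos3-led clusters also carried all 12 pluripotency markers but had germ cell markers among their leading genes (Dppa3, and Dppa3 with Nanos3), and were left out of the class. This rule used leading genes, not summed levels. The 8 germ cell markers of Bnip3-led cells summed to 500 counts per 1000000 UMIs (CPM) at time 1 and 442 at time 2. The class had 521 and 240, H19-led cells 679 and 464, and Nanos3-led cells 831 and 726. At time 1 these sums did not set Bnip3-led cells apart from the class. With both clusters added, the 4 Rhox genes summed to 839.9 CPM at time 1 and 287 at time 2, in place of 1281 and 220.4. Fibroblast-like feeder cells, led by Mgp, served as the cell type that should lack Rhox RNA. Their 9 fibroblast markers summed to 5802 CPM (counts of these genes per 1000000 UMIs) at time 1 and 5652 at time 2, against 7.40 and 9.01 in the pluripotent stem cell-like class.

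The RefSeq promoter windows of Rhox1 and Rhox5 differ in how many CG pairs, the sites of DNA methylation, they hold. The sequences are RefSeq windows of GRCm38.p6 from 250 bases before to 50 bases after the annotated start, written 5′ to 3′ along the gene, and CG pairs are in capitals. They are shown because methylation of CG pairs is the known brake on this cluster and because these 2 genes are the members with an entry in the promoter table. Rhox1 spans X:37222209-37222508 on the minus strand and Rhox5 spans X:37754358-37754657 on the plus strand.
Rhox1: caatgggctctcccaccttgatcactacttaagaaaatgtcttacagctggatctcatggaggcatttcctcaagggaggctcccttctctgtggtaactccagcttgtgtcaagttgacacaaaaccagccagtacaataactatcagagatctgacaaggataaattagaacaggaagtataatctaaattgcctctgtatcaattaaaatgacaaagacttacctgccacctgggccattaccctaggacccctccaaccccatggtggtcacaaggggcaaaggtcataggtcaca
Rhox5: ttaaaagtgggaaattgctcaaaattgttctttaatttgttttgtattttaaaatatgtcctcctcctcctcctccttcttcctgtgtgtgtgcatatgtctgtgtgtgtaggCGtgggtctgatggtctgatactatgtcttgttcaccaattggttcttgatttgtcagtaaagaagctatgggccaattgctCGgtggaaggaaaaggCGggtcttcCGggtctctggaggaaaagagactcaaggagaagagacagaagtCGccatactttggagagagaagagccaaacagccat
The Rhox1 window had 0 CG pairs and the Rhox5 window 5. Of 32851 promoters in the table, 94.6% held at least 1 CG pair and the median was 7. Of the 27 Rhox promoters in the table, 26 held at least 1, and Rhox1 was the exception. The Rhox5 window ends 50.2 kb upstream of the GENCODE start of the gene at base 37804842, outside the annotated gene. The counts, which come from 3′ ends, do not tell which start was used, so this window may not be the promoter of the counted transcripts.

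A further 3 letter strings were searched on both strands of these windows, of which CCGGAA contains a CG pair. The octamer ATTTGCAT, bound by Oct4, occurred in 0 of the 27 Rhox windows and in 1.74% of all promoters. The nuclear receptor half-site AGGTCA occurred in 14 of 27 Rhox windows and 16.3% of all promoters, with 2 copies in Rhox1. The Ets core CCGGAA occurred in 8 of 27 Rhox windows and 14.9% of all promoters, with 1 copy in Rhox5. Many Rhox windows belong to near-identical gene copies and are not independent.

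All 4 genes were abundant in pluripotent stem cell-like cells at time 1 and much lower at time 2. Rhox1 stood at 108 CPM at time 1, with an interval from 107 to 109, and 12.2 (11.9 to 12.4) at time 2, 8.91-fold lower. Rhox5 stood at 523 CPM (520.4 to 525) and 124 (124 to 125). Rhox6 stood at 327 CPM (325 to 329) and 43.1 (42.7 to 43.5).

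Rhox9 followed Rhox6 closely in both libraries, with 322 CPM (320.1 to 324) and 40.8 (40.4 to 41.2). On the scale of log2(CPM + 1), time 2 over time 1, the differences were -3.05 for Rhox1, -2.06 for Rhox5, -2.90 for Rhox6 and -2.95 for Rhox9. All 4 fell by at least 1 on that scale, as did 3.52% of the 2868 genes that reached 50 CPM at one time point or the other. The choice of members used this contrast, so nothing is read from that count. Among the 116 X-linked genes of that set, 22 fell by as much and the median difference was -0.67, against 0.10 over the whole set. Scaled to X-linked UMIs instead of all UMIs, the difference of the 4 summed was -1.75 in place of -2.53.

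Over all filtered cells, which do not depend on cluster names, the same genes were lower at time 2 by less. Rhox1 stood at 46.5 and 9.54 CPM, Rhox5 at 246 and 117, Rhox6 at 135 and 57.8, and Rhox9 at 131 and 55.2. The log2 differences were -2.17, -1.06, -1.21 and -1.23 in that order, and 2.02% of genes with at least 50 CPM fell by at least 1 in that comparison. The lead of Rhox1 in the size of its difference was present in both populations.

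Barcodes with few UMIs carried the genes as well. They held at least 500 UMIs at time 1 and 524 at time 2, so free RNA and poor cells among them cannot be told apart. Barcodes of at most 1000 UMIs, far below the 18315 and 18645 UMIs required of a cell, held Rhox1 at 42.2 CPM (36.0 to 49.3, Poisson interval) at time 1 and 10.0 at time 2. They held Rhox5 at 189.8 and 90.2 CPM, Rhox6 at 125 and 53.2, and Rhox9 at 106 and 45.3. Of these 8 values, 7 were below those over all filtered cells, and the interval of Rhox1 at time 2, 7.39 to 13.3, held the 9.54 of all filtered cells. A few Rhox UMIs in a cell and free RNA cannot be told apart.

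Fewer cells had the RNA at time 2. With every cell thinned to 10000 UMIs, Rhox1 was detected in 56.7% of pluripotent stem cell-like cells at time 1 (55.4 to 58.0%) and 8.95% at time 2 (8.51 to 9.41%). Rhox5 was detected in 71.7% and 28.1% of cells, Rhox6 in 61.2% and 16.3%, and Rhox9 in 60.7% and 16.0%. Without thinning they were 86.7% and 27.0% for Rhox1, 89.9% and 53.4% for Rhox5, 85.2% and 40.0% for Rhox6, and 85.5% and 40.5% for Rhox9. The class had median depths of 51867 and 52842 UMIs.

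Fibroblast-like cells gave the background for these shares, at median depths of 53845 and 48616.5 UMIs in 199 and 388 cells. Rhox1 was seen in 4.02% of them at time 1 and in 0 of 388 at time 2 (interval up to 0.95%). Rhox5 was seen in 13.6% and 6.44%, Rhox6 in 11.1% and 2.84%, and Rhox9 in 7.54% and 4.12%. The shares of the pluripotent stem cell-like class lay above these at both time points for each of the 4 genes. Without thinning, fibroblast-like cells had Rhox1 in 14.6% and 2.06%, Rhox5 in 48.2% and 22.4%, Rhox6 in 29.1% and 10.6%, and Rhox9 in 28.6% and 14.4%.

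**Figure D1:**
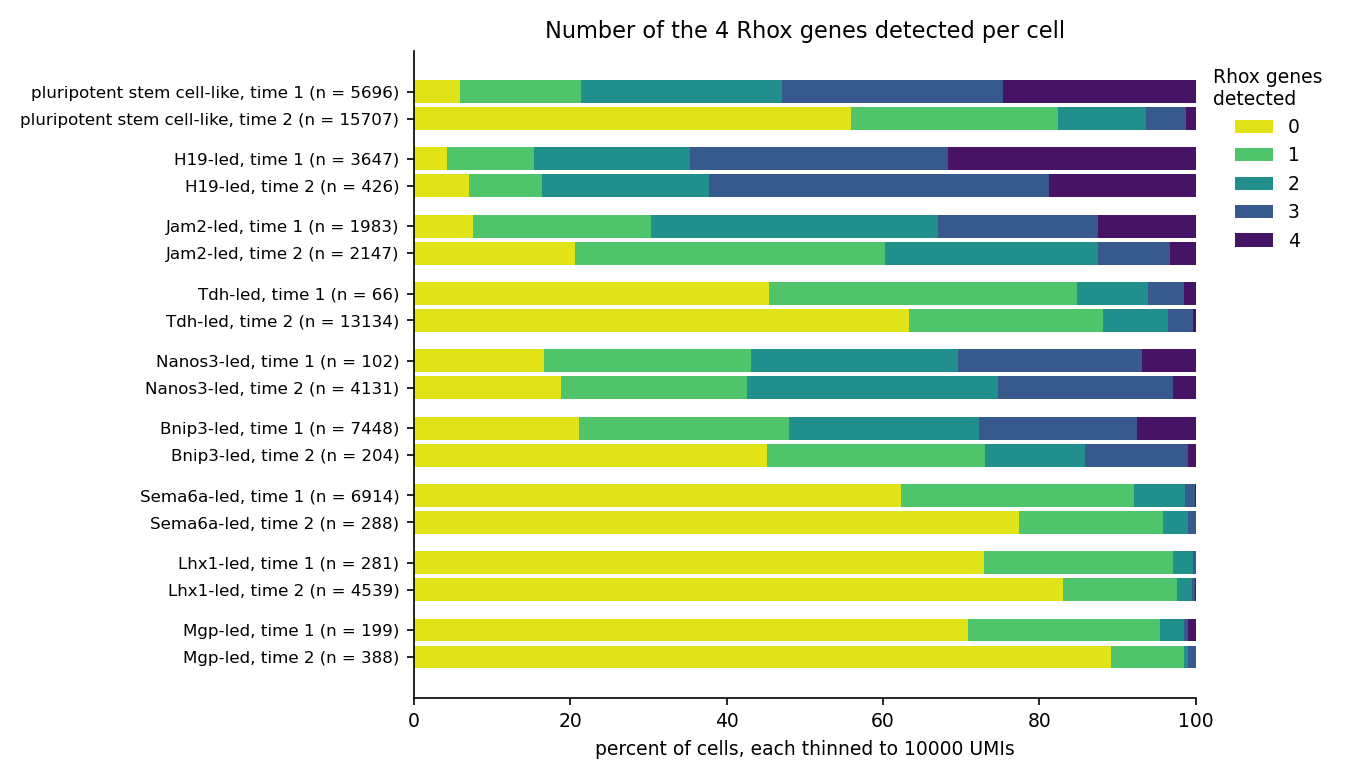
Percent of cells (x axis) in which 0, 1, 2, 3 or 4 of the Rhox genes had a UMI, each cell thinned to 10000 UMIs, by cluster or class and library (y axis, with the number of cells). Pluripotent stem cell-like cells with none of the genes went from 5.83% at time 1 to 55.9% at time 2, while the H19-led cluster went from 4.17% to 7.04%.

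Cells with no detected member made up 5.83% of the class at time 1 and 55.9% at time 2, and cells with all 4 made up 24.6% and 1.29%. With all UMIs, cells with none were 0.579% and 24.2%, and cells with all 4 were 63.5% and 9.80%. Of fibroblast-like cells, 27.1% and 65.2% had none with all UMIs. The plot of members per cell shows that the clusters differed in this respect. In the H19-led cluster 31.7% of cells at time 1 and 18.8% at time 2 had all 4, and in the Jam2-led cluster 12.5% and 3.31%. In the Nanos3-led cluster at time 2 it was 2.90%, although 81.1% had at least 1.

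Counts per cell were spread more widely than a single rate gives. In thinned pluripotent stem cell-like cells at time 1 the variance divided by the mean, which is 1 for counts at a single rate, was 1.56 for Rhox1, 7.06 for Rhox5, 11.8 for Rhox6 and 10.8 for Rhox9. At time 2 it was 1.53, 8.07, 9.53 and 9.30. Rhox1 had the lowest value in both libraries. The order of the others depended on the cluster: at time 1 Rhox5, Rhox6 and Rhox9 gave 7.54, 11.4 and 10.0 in the H19-led cluster but 6.15, 4.46 and 4.84 in the Jam2-led cluster. At time 2 Rhox5 had the highest value in the Tdh-led cluster (6.26, beside 2.83 and 2.48) and in the Nanos3-led cluster (7.70, beside 4.28 and 4.20). This quotient also grows with the mean, so it does not rank spread between genes whose means differ. Rhox1 had the lowest means in the class, 1.07 and 0.12. Means of Rhox5, Rhox6 and Rhox9 at time 1 were 5.06, 4.96 and 5.02 in H19-led but 5.42, 0.89 and 0.84 in Jam2-led cells. At time 2 they were 0.69, 0.24 and 0.22 in Tdh-led and 1.91, 2.07 and 2.03 in Nanos3-led cells.

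A minority of cells held much of the Rhox6 and Rhox9 RNA. At time 1 the 10% of cells with most thinned UMIs of a gene carried 36.6% of the Rhox1 UMIs, 36.3% of those of Rhox5, 51.5% of those of Rhox6 and 50.6% of those of Rhox9. At time 2 they carried 100% of those of Rhox1, which 8.95% of cells held at all, 75.0% of Rhox5, 85.8% of Rhox6 and 86.0% of Rhox9. These shares rise as counts get lower, also at a single rate, so the time points are not compared by them. At a single rate 88.8% of time 2 cells would lack Rhox1, beside 91.0% observed, so its 100% follows largely from its low count. For Rhox5, Rhox6 and Rhox9 the single-rate values were 29.6%, 64.3% and 65.4%, beside 71.9%, 83.7% and 84.0% observed. With all UMIs the median cell had 6 Rhox6 UMIs at time 1, 1 in 100 cells had at least 155, and the highest had 694. At time 2 the median cell had 0, 1 in 100 had at least 45, and the highest had 1088.

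The level of each gene depended on the cluster, and the 4 did not share the same order. At time 1 Rhox1 was 112 CPM in the H19-led cluster, 106 in the Jam2-led, 54.6 in the Lyz2-led, 27.6 in the Bnip3-led, 15.9 in the Nanos3-led and 6.47 in the Tdh-led cluster. The Sema6a-led cluster is called primed epiblast-like for Fgf5, Fgf8 and Pou3f1 among its leading genes, which also hold the trophoblast markers Krt8 and Krt18. It had 7.88 CPM and the Lhx1-led cluster 2.77, beside 3.26 in fibroblast-like cells. Counting intervals of neighbours in this order did not overlap, except among the last of them: the Tdh-led interval (4.23 to 9.49) overlapped those of the Sema6a-led cluster (7.60 to 8.17) and of fibroblast-like cells (2.35 to 4.41), and the latter overlapped that of the Lhx1-led cluster (1.95 to 3.82). The Lyz2-led cluster has macrophage markers among its leading genes. Its 12 pluripotency markers were all detected and summed to 7928 CPM at time 1, and its 5 macrophage markers to 181. With finer clusters (resolution 1.0) 270 time 1 cells stayed Lyz2-led, with Rhox1 at 42.8 CPM. An Rpgrip1-led cluster of 2196 time 1 cells had no macrophage marker among its leading genes and Rhox1 at 53.0 CPM.

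Rhox5 had another order. At time 1 it stood at 550.5 CPM in the Jam2-led cluster (546 to 555) and at 511 in the H19-led cluster (508 to 515). These intervals leave out the spread between cells, where variance over mean was 6.15 and 7.54 in thinned cells. At time 2 the highest values were 582 CPM in the H19-led cluster (572 to 592) and 569 (548 to 591) in the 80 cells of the Srgn-led cluster, whose intervals overlap. That cluster is primitive or parietal endoderm-like, with Dab2 and Col4a1 among its leading genes and all 9 endoderm markers detected. Its cells held Rhox5 with little of the others: Rhox5 was detected in 93.8% of thinned cells, Rhox1 in 1.25%, Rhox6 in 10.0% and Rhox9 in 5.00%. Levels of Rhox1, Rhox6 and Rhox9 there were 0.82, 9.78 and 3.46 CPM, against 0.39, 9.98 and 13.1 in fibroblast-like cells of the same library. Among those fibroblast-like cells the highest held 149 of the 301 Rhox9 UMIs, and for Rhox6 86 of the 230. With finer clusters (resolution 1.0) the Srgn-led cluster held 116 cells at time 2, with Rhox5 at 446 CPM and in 68.1% of thinned cells. Its 174 time 1 cells had Rhox5 at 152 CPM and in 32.2%, Rhox6 at 24.3 CPM and Rhox9 at 22.6 CPM.

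Rhox6 and Rhox9 were highest in the H19-led cluster at both time points. Rhox6 stood there at 495 CPM at time 1 and 738 at time 2, and Rhox9 at 489 and 723. The Nanos3-led cluster came next, with Rhox6 at 199 and 205 CPM and Rhox9 at 189 and 197. In the Jam2-led cluster Rhox6 stood at 91.5 and 37.2 CPM and Rhox9 at 86.2 and 33.8, and in the Tdh-led cluster at time 2 they stood at 26.3 and 24.6. In the Sema6a-led cluster at time 1 Rhox6 was detected in 9.85% of thinned cells, below the 11.1% of fibroblast-like cells, but its level of 12.0 CPM (11.7 to 12.4) was above their 8.78 (7.24 to 10.6), so no order is read. Rhox9 was detected there in 9.73% of cells, against 7.54% of fibroblast-like cells. In the Lhx1-led cluster at time 1, Rhox1, Rhox6 and Rhox9 were detected in 1.78%, 8.19% and 5.34% of cells. Fibroblast-like cells had higher shares, but the intervals of the shares overlap. Rhox6 stood at 12.3 CPM (10.5 to 14.3) and Rhox9 at 10.6 (8.95 to 12.5), above the 8.78 and 9.25 of fibroblast-like cells. No order is read there either.

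**Figure D2:**
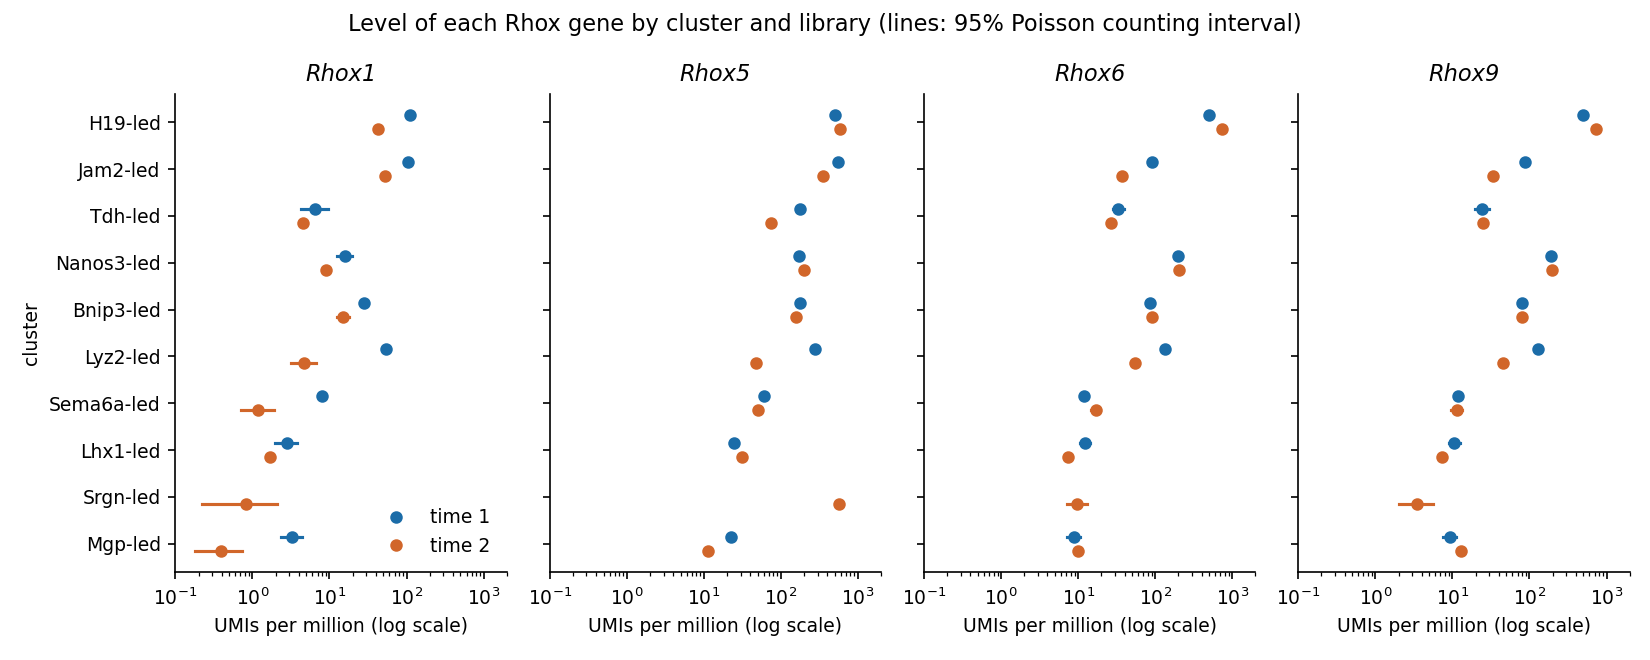
Level of Rhox1, Rhox5, Rhox6 and Rhox9 (x axes, CPM on a log scale) in each cluster (y axis) at time 1 and time 2, as points with 95% Poisson counting intervals as lines. Rhox5 reached 569 CPM in the Srgn-led cluster, where Rhox1, Rhox6 and Rhox9 were below 10 CPM.

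The clusters held unequal shares of the RNA. At time 1 the H19-led cluster had 15.7% of all filtered cells and 60.8% of the Rhox6 UMIs, 61.9% of those of Rhox9, 34.5% of those of Rhox5 and 39.9% of those of Rhox1. At time 2 it had 1.68% of cells and still 17.8% of the Rhox6 UMIs and 18.3% of those of Rhox9. The Nanos3-led cluster, whose leading genes include Nanos3 and Dppa3 of germ cells, had 16.2% of time 2 cells and 47.2% of the Rhox6 UMIs, 47.6% of those of Rhox9, 22.9% of those of Rhox5 and 12.4% of those of Rhox1. The Jam2-led cluster had 8.44% of time 2 cells and 50.5% of the Rhox1 UMIs.

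Within clusters the difference between time points was not that of the pooled class. In 5 clusters with at least 200 cells of each library, Rhox1 was lower at time 2 in all 5. It fell by at least 1 in 2 of them: the log2 difference was -1.39 in the H19-led cluster (interval -1.49 to -1.30) and -2.02 in the Sema6a-led cluster (-2.38 to -1.65). The shares of genes with at least 10 CPM that fell by as much were 0.59% and 0.294%, though Rhox1 in the Sema6a-led cluster was itself under 10 CPM. With finer clusters (resolution 1.0) Rhox1 fell in 3 of the 4 clusters that could be compared, with -1.03 in the Jam2-led one. The Sema6a-led shares of thinned cells with Rhox1, 5.81% and 1.39%, lie near those of fibroblast-like cells (4.02% and 0%). The Rhox1 level of barcodes with few UMIs was also lower at time 2, and its part was not tested. A minority of Sema6a-led cells held much of this RNA: the 434 X-high cells of time 1, with X dosage as defined below, stood at 60.6 CPM (57.5 to 63.7) with Rhox1 in 35.9% of cells, and the 4551 X-low cells at 3.67 CPM and 3.54%. At time 2 the 53 X-high cells stood at 3.33 CPM (1.44 to 6.56), from 8 UMIs. The 9 trophoblast markers summed to 485 CPM in the Sema6a-led cluster at time 1 and 1856 at time 2. Its 9 primitive or parietal endoderm markers summed to 209 and 426. The part of these shifts in the Rhox1 difference was not tested. In the Jam2-led, Bnip3-led and Lhx1-led clusters Rhox1 gave -0.98, -0.84 and -0.47. Lhx1-led cells held little of it, 2.77 and 1.71 CPM, beside 3.26 and 0.39 in fibroblast-like cells. The fibroblast-like values rest on 42 and 9 UMIs and themselves gave -1.62 (-2.04 to -1.19). The part of this background in the Rhox1 differences was not tested.

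Rhox6 and Rhox9 fell by at least 1 in the Jam2-led cluster, where 1.46% of genes did. The differences there were -1.28 (-1.32 to -1.23) and -1.32 (-1.37 to -1.28), with -0.64 for Rhox5. In the H19-led cluster the same 3 genes were higher at time 2, by 0.58 for Rhox6, 0.56 for Rhox9 and 0.19 for Rhox5, while Rhox1 was lower. Of the 426 H19-led cells of time 2, the highest held 1088 of the 15318 Rhox6 UMIs. The 9 trophoblast markers summed to 235 CPM in the H19-led cluster at time 1 and 1107 at time 2, with 7 of 9 above 5 CPM at time 2, and the part of this in the higher Rhox6 and Rhox9 was not tested. In the Lhx1-led cluster, where 4.67% of genes fell, and the Bnip3-led cluster, where 0.306% did, none of the 4 fell by at least 1.

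**Figure D3:**
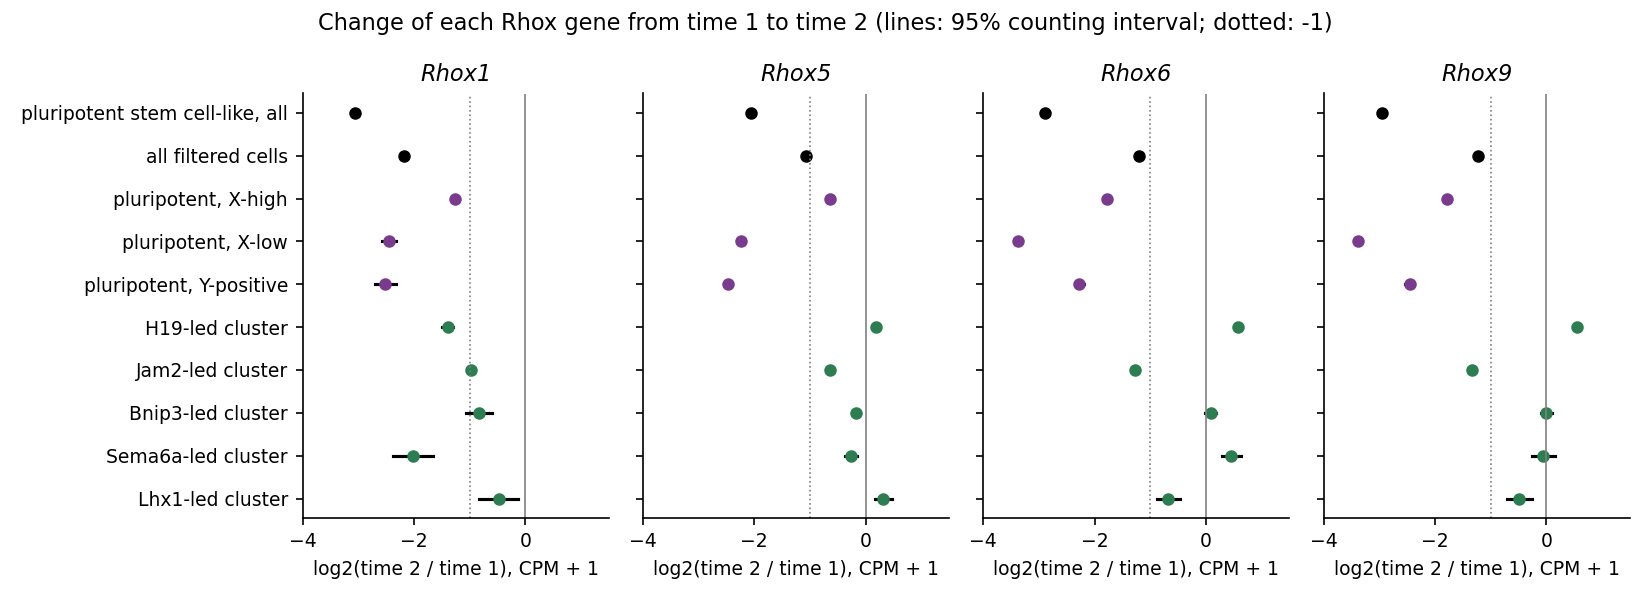
Difference between libraries as log2(CPM + 1) of time 2 over time 1 (x axes) for each gene in the pluripotent stem cell-like class, all filtered cells, X dosage classes and clusters (y axis), with 95% counting intervals as lines. Rhox1 lies left of 0 in each row, and Rhox6 and Rhox9 lie at 0.58 and 0.56 in the H19-led cluster and at -1.28 and -1.32 in the Jam2-led cluster.

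When time 2 levels of the class were recomputed with each cluster given its share of UMIs at time 1, the 4 genes summed to 1281 CPM at time 1 and 1416 at time 2, a log2 difference of 0.14 in place of -2.53. Rhox1 alone stayed lower by over 1, at -1.21, with -0.11 for Rhox5, 0.45 for Rhox6 and 0.44 for Rhox9. With the UMI shares of time 2 the differences were -0.84, -0.92, -0.25 and -0.07. These standardised values rest on 66 Tdh-led cells at time 1 and 426 H19-led cells at time 2. Within the 5 strata of cluster and X dosage with at least 50 cells in both libraries, which held 93.3% of the class at time 1 and 16.1% at time 2, the summed difference weighted as at time 1 was 0.07.

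Because the genes are X-linked, cells were also split by X dosage, UMIs of X-linked genes over those of autosomes, relative to Y-positive cells of the same library, computed without Rhox genes and Xist. X-high cells had a ratio of at least 1.2 and no Y UMI, X-low cells a lower ratio and no Y UMI, and Y-positive cells at least 2 Y UMIs. X-high cells had median ratios of 1.67 and 1.87. X-high cells were 83.6% of the class at time 1 and 17.3% at time 2, and X-low cells 8.64% and 70.0%. A gain of an autosome was called in 6.30% and 11.3% of X-high cells and in 23.8% and 91.5% of X-low cells. The X-high over X-low values of the class are given below also without such cells; within clusters and between the time points the part of gains was not tested.

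Rhox1 separated the X dosage classes most. At time 1 it stood at 118 CPM in X-high cells, 23.8 in X-low cells and 40.7 in Y-positive cells, and at time 2 at 48.8, 3.55 and 6.30. The log2 difference of X-high over X-low was 2.27 at time 1 (2.15 to 2.38) and 3.45 (3.40 to 3.50) at time 2. Scaled to X-linked UMIs it was still 1.61 and 2.93.

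For the other genes in this class the difference by X dosage was smaller at time 1 than at time 2. At time 1 X-high over X-low was 0.68 for Rhox5, 0.15 for Rhox6 and 0.20 for Rhox9, and per X-linked UMIs -0.03, -0.56 and -0.50. At time 2 it was 2.28, 1.74 and 1.81, and per X-linked UMIs 1.45, 0.93 and 1.00. In all but fibroblast-like cells it was 2.16 and 1.80 for Rhox5, 2.18 and 0.85 for Rhox6, and 2.27 and 0.91 for Rhox9, time 1 first, so the order of the time points was the opposite there. In cells of the class without a called gain, the time 1 values were 2.17 for Rhox1, 0.59 for Rhox5, 0.23 for Rhox6 and 0.28 for Rhox9. The time 2 values were 3.24 for Rhox1, 1.57 for Rhox5, 0.95 for Rhox6 and 0.85 for Rhox9, and 1.43 for the 4 summed in place of 2.18. In the whole class 1 of 4 members was higher in X-high cells by at least 1 at time 1, where 0.817% of genes with at least 10 CPM were, and 4 of 4 at time 2, where 3.21% were. Among X-linked genes the corresponding shares were 10.6% and 32.9%.

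The time 2 difference mixed clusters, since the Jam2-led cluster was 94.6% X-high and the Tdh-led cluster 2.87%. Within the Tdh-led cluster at time 2, X-high over X-low was 2.53 for Rhox1, 1.48 for Rhox5, 1.29 for Rhox6 and 1.27 for Rhox9. Within the H19-led cluster it was 2.14 for Rhox1 at time 1 and 1.81 at time 2, but -0.13 for Rhox6 and 0.04 for Rhox9 at time 2. Within the Jam2-led cluster it was 2.38 and 2.77 for Rhox1, 1.01 and 0.26 for Rhox5, 2.16 and 1.36 for Rhox6, and 2.14 and 1.48 for Rhox9, with 71 and 51 X-low cells. Per X-linked UMIs the time 2 values were 2.04, -0.62, 0.53 and 0.67 in the Jam2-led cluster and 2.32, 0.98, 0.82 and 0.79 in the Tdh-led cluster, for Rhox1, Rhox5, Rhox6 and Rhox9, and 1.16, -0.39, -0.85 and -0.67 in the H19-led cluster.

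**Figure D4:**
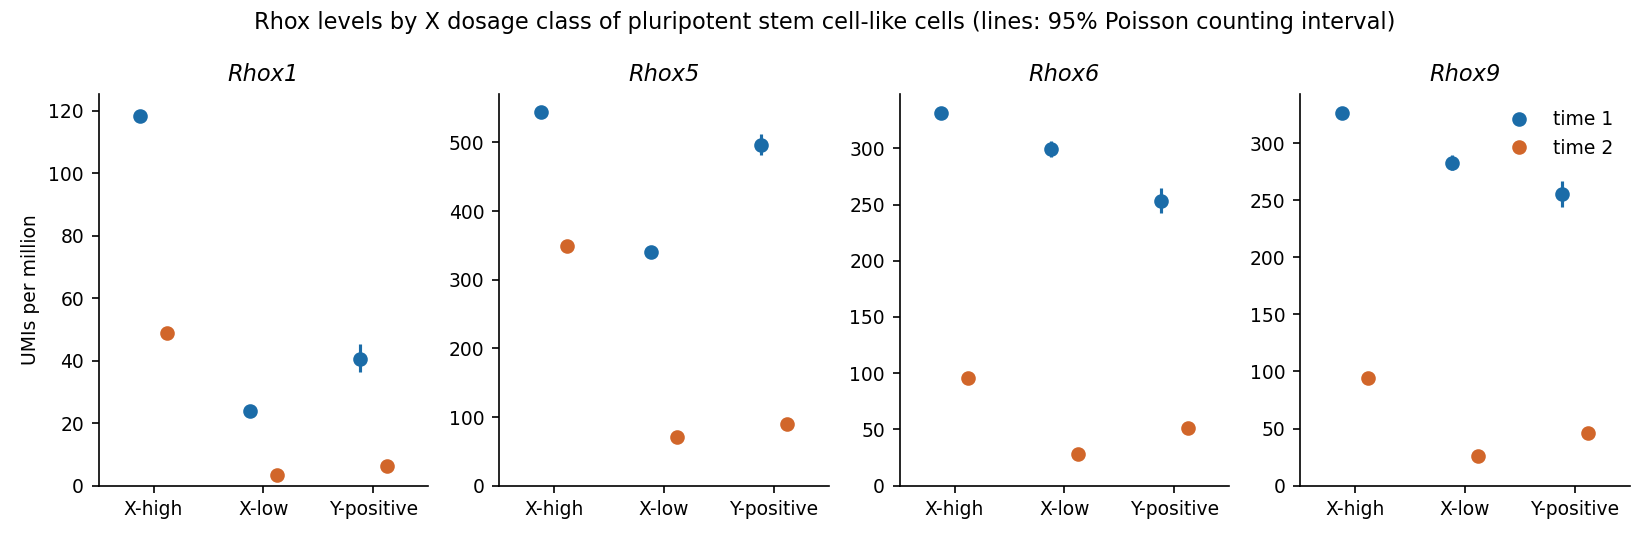
Level of each Rhox gene (y axes, CPM, from 0) in X-high, X-low and Y-positive pluripotent stem cell-like cells (x axes) at time 1 and time 2, with 95% Poisson counting intervals as lines. Rhox1 falls from 118 CPM in X-high to 23.8 in X-low cells at time 1, whereas Rhox6 stands at 331 and 299.5.

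Pooled over the clusters of the class, the genes were lower at time 2 in each X dosage class. In X-high cells, where 2.58% of genes with at least 10 CPM fell by at least 1, the log2 differences were -1.26 for Rhox1, -0.64 for Rhox5, -1.78 for Rhox6 and -1.78 for Rhox9. In X-low cells, where 6.72% did, they were -2.44, -2.24, -3.37 and -3.38. In Y-positive cells, where 4.85% did, they were -2.51, -2.46, -2.27 and -2.45. With the X classes' UMI shares of time 1 the summed difference of the class was -1.29, and with those of time 2 it was -2.23. X-low cells at time 1 were mostly H19-led (374 of 492) and at time 2 mostly Tdh-led (10859 of 10995). X-high cells were mostly H19-led at time 1 (2989 of 4762) and mostly Jam2-led at time 2 (2030 of 2722), so these differences contain that of the clusters. In H19-led X-high cells Rhox5, Rhox6 and Rhox9 were higher at time 2, by 0.22, 0.38 and 0.43, and in H19-led X-low cells by 0.35, 0.81 and 0.76. In Jam2-led X-high cells they gave -0.68, -1.34 and -1.39. In Jam2-led X-low cells, 71 and 51, they gave 0.07 (-0.07 to 0.20), -0.54 (-1.08 to 0.00) and -0.73 (-1.31 to -0.16). In all but fibroblast-like cells the X-low differences were -1.59 for Rhox1, -0.33 for Rhox5, -0.20 for Rhox6 and -0.16 for Rhox9, and with the Bnip3-led and Nanos3-led clusters added to the class -1.63, -0.64, -0.69 and -0.64. The Y-positive differences were -1.41, -0.64, -0.04 and -0.17 in all but fibroblast-like cells. With the 2 clusters added they were -1.32, -1.01, -0.31 and -0.44.

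Rhox6 and Rhox9 shared cells more than their single shares give, and by a larger factor than any other pair. At time 1, 49.5% of thinned pluripotent stem cell-like cells held both (48.2 to 50.8%), beside 37.2% given by the product of the single shares, a ratio of 1.33. At time 2, 7.94% held both (7.52 to 8.37%), beside 2.60%, a ratio of 3.06. That ratio was 1.59 with all UMIs and 9.04 when at least 2 UMIs were required. Rhox5 and Rhox6 were together in 8.06% at time 2, beside 4.57%. For the other 5 pairs the ratio lay between 1.04 and 1.07 at time 1 and between 1.71 and 2.05 at time 2.

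The pair kept this lead within clusters and X dosage classes. The Rhox6 and Rhox9 ratio was 1.15 and 1.14 in the H19-led cluster at time 1 and time 2, 1.66 and 2.54 in the Jam2-led cluster, and 1.32 and 2.36 in X-high cells. In the Jam2-led cluster the other pairs lay between 1.05 and 1.10 at time 1 and between 1.08 and 1.24 at time 2. A ratio is bounded by how common the genes are, so it cannot be compared between populations with different shares.

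**Figure D5:**
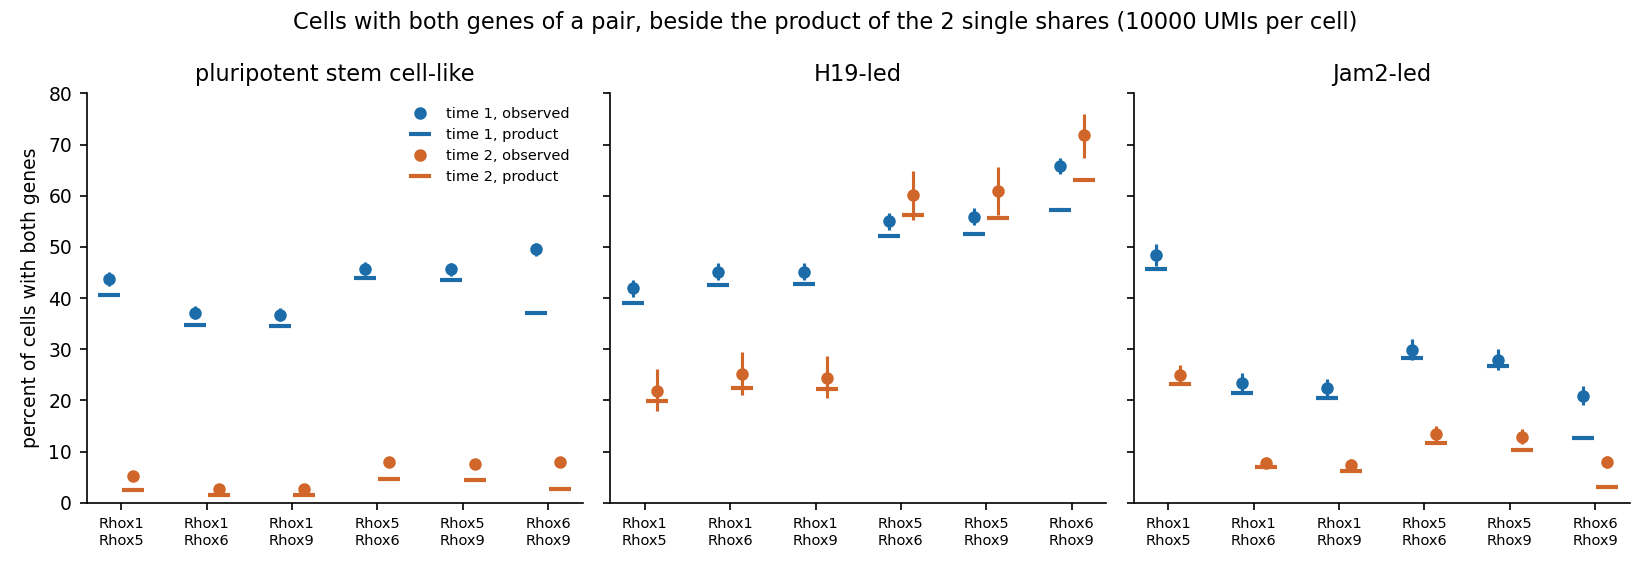
Percent of cells with both genes of a pair (y axis; points with 95% exact binomial intervals) beside the product of the 2 single shares (horizontal marks) for 6 pairs (x axes), at 10000 UMIs per cell, in the pluripotent stem cell-like class and its H19-led and Jam2-led clusters. For Rhox6 with Rhox9 the observed 49.5% at time 1 lies above the product of 37.2%.

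Among cells with Rhox9, Rhox6 was present in 81.5% at time 1 and 49.7% at time 2, and among cells without Rhox9 in 29.7% and 9.92%. Pearson's r of log counts across thinned cells of the class was 0.82 at time 1 and 0.68 at time 2 for this pair. For Rhox5 with Rhox6 it was 0.24 and 0.30, for Rhox1 with Rhox5 0.18 and 0.25, and for Rhox1 with Rhox6 0.15 and 0.15. These are descriptions over 5696 and 15707 cells, which share a library, and cells of different clusters were pooled.

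In clusters with many UMIs of both genes, the totals of Rhox6 and Rhox9 were close. The ratio of Rhox9 to Rhox6 UMIs was 0.99 and 0.98 in the H19-led cluster at time 1 and time 2, 0.94 and 0.91 in the Jam2-led cluster, and 0.96 in the Nanos3-led cluster at time 2. At time 1 it was 0.94 in the Bnip3-led and 0.95 in the Lyz2-led cluster, and at time 2 it was 0.93 in the Tdh-led cluster. Where the genes were low it ranged more widely, from 0.35 in the Srgn-led cluster (48 and 17 UMIs) and 0.67 in the Sema6a-led cluster at time 2 (255 and 171 UMIs) to 1.31 in fibroblast-like cells at time 2 (230 and 301 UMIs). Of the fibroblast-like UMIs at time 2, the highest cell held 86 for Rhox6 and 149 for Rhox9. The ratio of Rhox6 to Rhox5 UMIs moved far more, from 0.97 and 1.27 in the H19-led cluster to 0.17 and 0.11 in the Jam2-led cluster. Reads of near-identical copies can be split between them or go uncounted. But of 441 windows of 60 bases in the last 500 bases of each annotated transcript, those of the 4 members shared 0 with any other Rhox gene.

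Genes outside the cluster that varied with the members were named by the lower of the 2 within-library correlations over the class, among 8184 genes. For Rhox6 and Rhox9 the same 3 genes came first: H19, an imprinted noncoding RNA, Dppa3, a factor of germ cells and early embryos, and Fabp3, a fatty acid binding protein. For Rhox6 their r was 0.28, 0.34 and 0.36 at time 1 and 0.31, 0.25 and 0.24 at time 2. H19 leads the cluster in which Rhox6 is highest.

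For Rhox1 the leading genes were X-linked: Rpl39 (0.21 and 0.34) and Rps4x (0.18 and 0.29), both ribosomal proteins, and Bex3 (0.19 and 0.26). For Rhox5 they were Bex3 (0.19 and 0.26), Calcoco2, an autophagy receptor (0.17 and 0.26), and Mylpf, a myosin light chain (0.17 and 0.17). The 99th percentile over all genes at time 1 was 0.07 for Rhox1, 0.08 for Rhox5 and 0.14 for Rhox6.

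Of the 30 other Rhox genes, 27 were under 1 CPM in the pluripotent stem cell-like class of both libraries, and 7 had no UMI in that class. The remaining 3 were low: Rhox2a at 5.71 and 1.00 CPM, Rhox7b at 2.92 and 0.56, and Rhox13 at 3.20 and 2.41. Their log2 differences were -1.75, -1.32 and -0.30, and 6.31% of genes with at least 1 CPM fell by at least 1. Over all filtered cells the differences were -0.99, -0.53 and -0.01, where 2.72% of such genes fell. The lettered copies of Rhox2, Rhox3 and Rhox4, among them Rhox2a and the 7 genes with no UMI, belong to families of near-identical copies. Their reads could be split among the copies or go uncounted, so their low counts are not read as low expression. The X-high over X-low difference of Rhox2a was 2.08 and 2.37 at time 1 and time 2, that of Rhox7b 0.30 and 0.57, and that of Rhox13 0.51 and 1.32.

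Protein-coding neighbours of the cluster were lower at time 2 as well. The 5 nearest genes with at least 10 CPM on each side had a median log2 difference of -0.86, against -0.04 over the 7433 genes with at least 10 CPM, of which 5.48% fell by at least 1. The 266 X-linked genes of that set had a median of -0.69, and 21.8% of them fell. Of the 10 neighbours, 4 fell and 0 rose. The lowest were Gm9 (54.1 and 6.30 CPM, -2.92) and C1galt1c1, a chaperone of sugar transfer (-1.27), and the others that fell were Ndufa1, of mitochondrial complex I (-1.17), and Cul4b, a ubiquitin ligase scaffold (-1.02). The highest were Thoc2 (-0.28) and Upf3b (-0.30), which act on messenger RNA export and decay. X-high over X-low was 0.86 in the median at time 1 and 1.02 at time 2, against 0.69 and 0.83 over X-linked genes, and Gm9 had the highest values, 1.77 and 3.33.

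Genes that write or erase DNA methylation or repress such promoters were listed for their role. Of 15 listed, 14 had at least 10 CPM and 0 fell by at least 1, beside 5.48% of all genes at that level, and 0 rose by as much, beside 1.7%. The median difference was 0.19, and counts of 0 among 14 genes lie near those backgrounds. The highest were Tet2, a 5-methylcytosine oxidase (20.1 and 35.9 CPM, 0.80), and Zfp57, an imprint guardian (37.9 and 61.6 CPM, 0.69). The lowest were Dnmt3l, a cofactor of de novo methylation (209 and 137 CPM, -0.60), and Ehmt1, a histone H3 methyltransferase (-0.13). The maintenance enzyme Dnmt1 stood at 102 and 103 CPM.

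Of 20 germline genes known for methylated promoters, 9 had at least 10 CPM, 3 fell by at least 1 and 0 rose, with a median of -0.83, beside 5.48% of all genes at that level that fell. Hormad1 (58.0 and 23.6 CPM) and Fkbp6 (18.4 and 7.08 CPM), both of meiosis, had the lowest values, at -1.26 each. The highest were Ddx4 (0.21) and Tex19.1 (-0.24). As for the other lists, these differences pool the clusters of the class, whose sizes differed between the time points. The part of that was not tested. X-high over X-low was over 1 for 3 of the 9 at time 1, beside 0.817% of all genes, and for 4 at time 2, beside 3.21%, with medians of 0.76 and 0.90.

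Of 12 placental genes, 4 had at least 10 CPM and all 4 fell by at least 1, beside 5.48% of all genes at that level. They were Ascl2 (23.7 and 3.93 CPM, -2.32), Sfmbt2 (-1.76), Peg10 (-1.66) and Tfap2c (103 and 46.7 CPM, -1.13), which act in trophoblast. Ascl2 is itself 1 of the 9 trophoblast markers, which summed to 159 CPM in the class at time 1 and 45.1 at time 2. Over all filtered cells the differences were -1.36, -0.81, -1.13 and -0.36, so 2 of the 4 fell by at least 1 there, beside 2.64% of genes. X-high over X-low of these 4 was -0.11 in the median at time 1 and 0.99 later.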

How the data were processed

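Single-cell RNA was captured with 10x version 3.1 chemistry, per the labels' protocols. The authors deposited raw UMI counts for each gene in each barcode. The submitters' processing notes name bcl2fastq 2.20.0.422, Cell Ranger 6.1.2 and the builds mm10 and GRCm38. The matrices held 145288 barcodes with 1735810403 UMIs at time 1 and 52242 with 1843588321 at time 2, and no barcode below 500 and 524 UMIs, so barcodes of at most 1000 UMIs stood in for empty droplets.

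Cells had at least 10% of the UMIs of the 99th percentile of the 20000 largest barcodes (18315 and 18645), 1000 or more genes, and 10% or less of UMIs from mitochondrial genes. Scrublet's automatic threshold marked 2.13% and 0.287% of these, so the cells with the top 10% of its scores (2574 and 2825) were removed instead. Clustering used Leiden at resolution 0.5 on 15 neighbours in 30 principal components of 2000 variable autosomal genes (scanpy 1.11.5). The class to describe was set after the clusters were seen.

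Counts were summed per library and population and divided by all UMIs (CPM). Ratios are log2(CPM + 1), which understates changes of low genes, and "fell" or "rose" means a change of at least 1. Intervals are exact Poisson (levels), Clopper-Pearson (shares) or from Poisson errors on the log scale (ratios). Shares of cells used 10000 UMIs drawn per cell, and 0 cells of the filtered libraries lacked that many. X dosage used 395 X-linked and 11229 autosomal genes, and gains were chromosomes at a ratio of at least 1.3. The genes named from the lists are the 2 highest and the 2 lowest of each, beside some that fell or that are described for their role. With 1 library per time point no test was possible. Calculations used pandas 2.3.3, scipy 1.17.1 and numpy 2.4.6 under Python 3.11.15, and edgeR 4.0.16 for alternative scaling factors only. The members and lists were chosen with earlier results of these data known. The scripts' statistics were tested on simulated data.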

Additional observations from a re-analysis of the deposited data

Results flagged for a closer look

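Rhox5, Rhox6, Rhox9 and the 4 genes summed moved in opposite directions between the time points in 2 clusters of pluripotent stem cell-like cells, with counting intervals on opposite sides of 0. On the log2(CPM + 1) scale, time 2 over time 1, Rhox5 gave 0.19 in the H19-led cluster and -0.64 in the Jam2-led cluster. Rhox6 gave 0.58 and -1.28, Rhox9 gave 0.56 and -1.32, and the 4 genes summed gave 0.37 and -0.80. The intervals leave out the spread between cells. Of 426 H19-led cells at time 2, the highest held 1088 of the 15318 Rhox6 UMIs, and for Rhox9 839 of the 15002. The difference between the clusters was not tested, since each library is 1 sample, and Rhox6 and Rhox9 were among the genes that led the H19-led cluster.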

How the results depend on the processing

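No paired analysis was possible because each time point had 1 library and the labels give no replicate numbers. For the 4 genes summed, the level of 1281 CPM at time 1 and 220.4 at time 2 became 558 and 239.5 over all filtered cells, 652 and 218 with primed epiblast-like cells, 1253 and 236 with doublets kept, and 839.9 and 287 with the Bnip3-led and Nanos3-led clusters, and 1273 at time 1 with at most 5% mitochondrial UMIs. The log2 difference of -2.53 became -1.22, -1.57, -2.40, -1.54 and -2.52 in the same order. It was -2.51 with a pseudocount of 5, -2.32 with TMM scaling, which shifts all genes by 0.21, and -1.75 per X-linked UMIs. In these settings and 2 others, with at least 30000 UMIs and with a pseudocount of 0.1, the sum and each gene stayed at or below -1. The choice of members used this contrast, so nothing is read from that. Of genes with at least 50 CPM, 3.52% fell by as much in the class and 2.02% over all filtered cells. That share is not given for the other settings. Over all filtered cells per X-linked UMIs, the difference was -0.63 for Rhox5, -0.78 for Rhox6, -0.81 for Rhox9 and -0.78 for the sum, with -1.85 for Rhox1, and at fixed cluster composition it was above -1 for the sum, as given below.

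Cells with any member, 94.2% and 44.1%, became 99.4% and 75.8% with all UMIs, 87.8% and 33.0% at 5000 UMIs, 71.3% at time 1 over all filtered cells, and 85.5% and 51.8% with the Bnip3-led and Nanos3-led clusters. Fibroblast-like cells, the background, had any member in 29.1% and 10.8% at 10000 UMIs, and in 72.9% and 34.8% with all UMIs. X-high over X-low, 0.48 and 2.18, became 0.52 and 2.23 with X-high at 1.4, 2.26 and 1.47 in all but fibroblast-like cells, 1.73 and 1.41 with the Bnip3-led and Nanos3-led clusters, 1.34 and 0.55 in the Jam2-led cluster, and 1.43 at time 2 without called gains. Per X-linked UMIs it was -0.22 and 1.35, with -0.025 for Rhox5, -0.56 for Rhox6 and -0.50 for Rhox9 at time 1. At fixed composition, weights of time 2 gave -2.23 for X class in place of -1.29, -0.68 for cluster in place of 0.14 (Rhox6 -0.25, Rhox9 -0.072) and -0.50 for both in place of 0.07 (Rhox6 -0.30, Rhox9 -0.27). The Rhox6 and Rhox9 ratio, 1.33 and 3.06, became 1.06 and 1.59 with all UMIs and 1.80 and 9.04 for at least 2 UMIs. The causes of these changes were not tested. The settings with the Bnip3-led and Nanos3-led clusters and with the Jam2-led cluster alone were chosen after seeing the data.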
